A study of Mus musculus with 220 samples.

Results

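The 79 homeostatic high endothelial cells (HEC) of a single-cell RNA sequencing series on mouse lymph nodes were examined for their expression profile and for the genes whose levels vary together from cell to cell. The cells were those titled as homeostatic HEC, 79 of 220 cells in all, and no measured value entered their choice. They came from untreated C57BL/6 mice. The same series holds 32 blood endothelial cells (BEC) of untreated C57BL/6 mice, 65 inflamed HEC from C57BL/6 mice whose skin received 4% oxazolone with harvest on day 3, and 44 dedifferentiated HEC from C57BL/6 mice given 1 intraperitoneal injection of LTBR-Ig with harvest on day 7. All were purified from dissociated nodes by flow cytometry and captured on the Fluidigm C1 system, which makes complementary DNA from 1 cell per chamber. The labels name neither animals nor pools, chips or the sort gate, so all 79 cells count as 1 sample. Correlations over cells below are therefore descriptions and carry no p-value, and cells of the same animal or chip cannot be told apart.

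High endothelial cells line the postcapillary venules through which naive lymphocytes leave the blood and enter a lymph node. They coat sialomucins such as GLYCAM1 with fucosylated and sulfated sugars, which tether passing lymphocytes through L-selectin, and they present CCL21, the chemokine that arrests rolling cells. Their differentiated state is known to depend on lymphotoxin β receptor and NF-kB signalling.

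Between 2112 and 5655 genes, with a median of 3842, reached an FPKM of 1 in a homeostatic HEC (FPKM counts sequenced fragments per kilobase of a transcript, divided by the mapped total of that cell). Depth, approximated from the steps of low FPKM values, ranged from 803858 to 4937645 fragments with a median of 1797878. The closest pair of cells had r 0.70 over all genes, so no homeostatic HEC appeared to be deposited more than once. Among the inflamed HEC, cells 43 and 60 had r 0.99 and were averaged, which left 64. In 8 of the 79 cells, 3 or more markers of another cell type reached an FPKM of 10, among them leukocyte markers in 7 cells, B lymphocyte markers in 6 and myeloid markers in 1. The lymphatic genes Prox1 and Reln, the fibroblast genes Pdgfra, Col1a1 and Lum, the T cell genes Cd3e and Lat and the myeloid genes Lyz2, S100a8 and S100a9 were listed at 0 in every cell. Other members of these lists were detected, at 1 FPKM or more in at least 1 cell: 3 of 6 lymphatic, 3 of 9 fibroblast, 4 of 10 T cell and 4 of 8 myeloid genes. Their summed levels reached 308, 604, 373 and 2700 FPKM in single cells, with medians of 0, 0, 1.30 and 0. Gene levels below are log2(FPKM + 1) or FPKM, as stated, and an SD is the spread over cells.

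The 8 high endothelial markers that go with the label were abundant in these cells. Glycam1 ranged from 49.6 to 295547 FPKM with a median of 59091, against a median of 66.2 in BEC. Ccl21a ranged from 6.37 to 152252 FPKM with a median of 57488, against 60.1 in BEC. Together these 2 transcripts took between 0.471% and 43.2% of the summed FPKM of a cell, with a median of 20.8%. Ubd, a ubiquitin-like protein induced by inflammatory cytokines, had a median of 5835 FPKM and lay between 71.2 and 16301. The 3 enzymes of L-selectin ligand synthesis were lower and more uneven. Fut7, the fucosyltransferase, had a median of 323 FPKM and a range of 0 to 1724. Chst4, the sulfotransferase, had a median of 275 and a range of 0 to 2294. Gcnt1, which builds the branched core of O-linked sugars, had a median of 133 and a range of 0 to 724. Ackr1, the atypical chemokine receptor of venules, had a median of 1002 FPKM and a range of 0.44 to 7329. Enpp2, the enzyme autotaxin that makes lysophosphatidic acid, varied least of the 8, with 228 to 5549 FPKM and a median of 2374. At an FPKM of 10, a cell carried between 5 and 8 of the 8 markers, and 58 cells carried all of them.

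**Figure D1:**
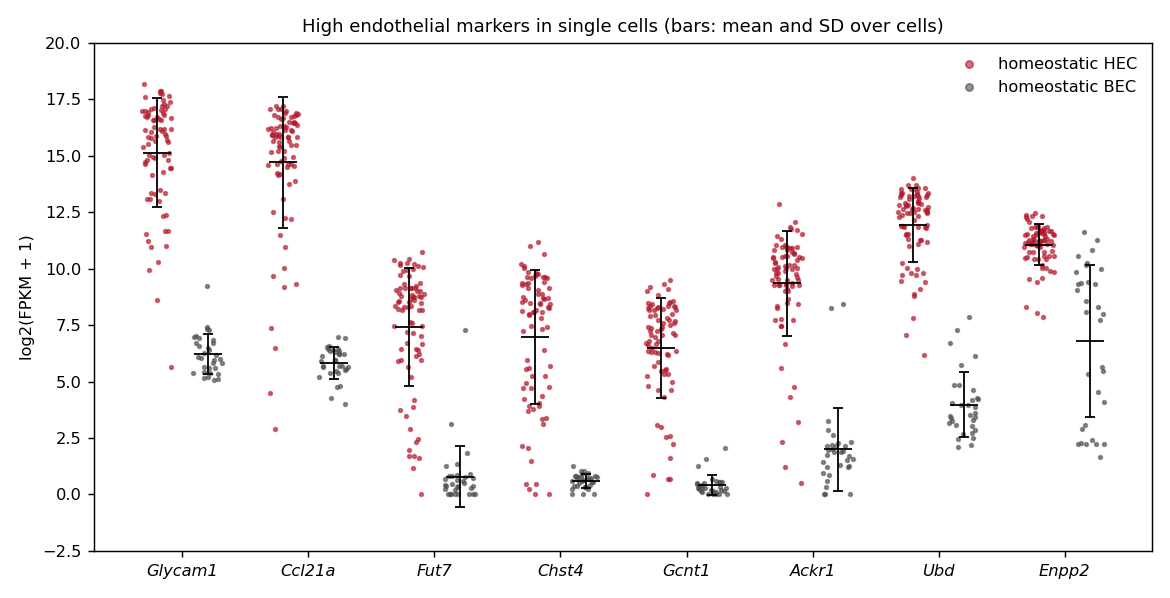
Levels of the 8 high endothelial markers as log2(FPKM + 1), 1 point per cell, in 79 homeostatic HEC and 32 homeostatic BEC; bars give the mean and SD over cells. Only 2 HEC lie within the BEC range for Glycam1 and 3 for Ccl21a and for Ubd, while 59 do so for Enpp2.

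The marker plot shows overlap that differs by gene. At or below the highest BEC lay 2 of 79 HEC for Glycam1, 3 for Ccl21a and 3 for Ubd. The overlap was 5 cells for Chst4, 5 for Gcnt1, 16 for Ackr1, 28 for Fut7 and 59 for Enpp2. None of the 5 cells in the BEC range for Glycam1 or Ccl21a lay in it for both. Cell 16 had 49.6 FPKM of Glycam1 and 8681 of Ccl21a, and cell 7 had 388 and 45127. In reverse, cell 50 had 142871 FPKM of Glycam1 and 21.2 of Ccl21a, and cell 35 had 112652 and 88.3. Cell 60 had 2354 and 6.37. Cell 16 was also at or below the highest BEC for Ubd (225 FPKM against 229), Chst4 (0.18 against 1.37), Fut7 and Gcnt1 (both 0) and Enpp2. Chst4 was at 0.39 FPKM in cell 60. At a looser limit low levels overlapped: of the 20 cells below the first quartile of Glycam1, 11 were also below that of Ccl21a. Ackr1 was at 173 FPKM or more in all 5 cells, but cells 35 (172.65) and 50 (346.05) lay below the highest BEC, at 346.43. Cells 7, 16 and 60 had Ly6c1, a surface protein of capillary endothelium, at 833, 1178 and 1283 FPKM.

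The 20 named genes of highest mean log2 level included the markers Glycam1, Ccl21a, Ubd and Enpp2. Among the others were B2m, H2-D1 and H2-K1 of MHC class I, Actb and Tmsb4x of the actin cytoskeleton, Ubb, Eef1a1, Ppia, Fth1, Ifitm3, Ifitm2, the secreted chaperone Clu, the nuclear RNA Malat1, the glycolipid-anchored Ly6e and Il2rg, the common cytokine receptor chain. Il2rg, best known from lymphocytes, averaged 10.93 ± 0.996 (SD, n = 79) and ranged from 97.4 to 5635 FPKM. Steady genes were B2m with an SD of 0.43, Tmsb4x with 0.48 and Actb with 0.53, against a median SD of 2.52 over expressed genes. The most variable included the neutrophil chemokine Cxcl1 (SD 4.22), the fatty acid carrier Fabp4 (4.08), the protease inhibitors Serpina1e (3.91) and Serpina1b (3.86), the MHC class II chain H2-Aa (3.91), the platelet chemokine Pf4 (3.80) and the immunoproteasome subunit Psmb9 (3.73). Each of these 7 was listed at 0 in at least 1 cell and reached 1572 FPKM or more in another.

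Of 24049 gene symbols, 2778 (11.6%) reached an FPKM of 1 in at least 50% of the 79 cells and are called expressed, and 236 of them did so in every cell. Pearson's r of log2(FPKM + 1) over the 79 cells was computed for all 3857253 pairs. The median r was 0.04, and the 1st and 99th percentiles were -0.25 and 0.32. An r of 0.5 or more was reached by 1519 pairs, 0.0394% of all pairs, an r of 0.3 or more by 59805 (1.55%), and an r of -0.3 or less by 10677 (0.277%). These 3 shares are the background for the counts below. The extremes were 0.89 and -0.64. All points share the depth and detection of their cell: the first principal component held 6.30% of the variance and had r 0.91 with the number of detected genes, and a gene had a median r of 0.19 with that number. After a linear fit on the number of detected genes, the median over pairs was 0.003 and 1417 pairs stayed at 0.5 or more.

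**Figure D2:**
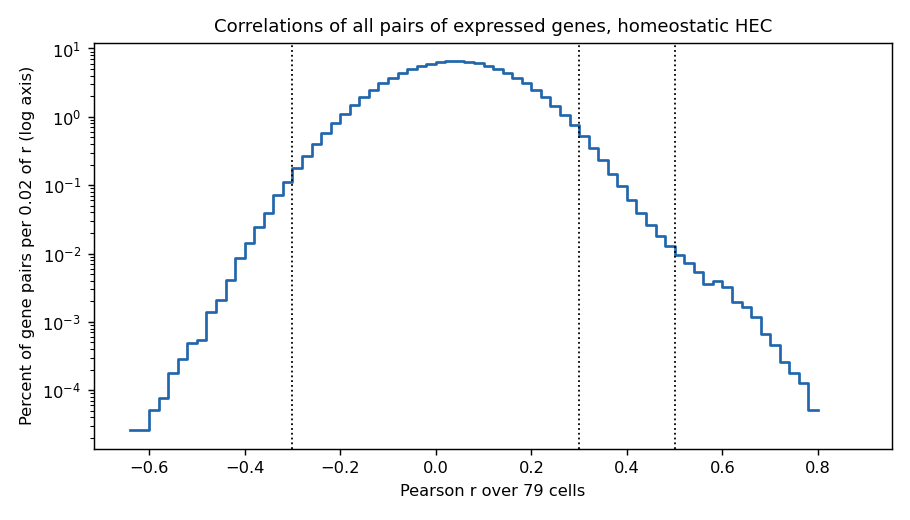
Distribution of Pearson's r over 79 homeostatic HEC for all 3857253 pairs of expressed genes, as percent of pairs per bin of 0.02 on a log axis; dotted lines mark -0.3, 0.3 and 0.5. Most pairs lie near the median of 0.04, and only 0.0394% reach 0.5.

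The plot of all pairs shows how rare strong covariation was. The 1519 pairs at 0.5 or more were also correlated in cells that took no part in their choice. The same pairs had a median r of 0.44 over inflamed HEC, with 1152 of them (75.8%) at 0.3 or more, and of 0.36 over dedifferentiated HEC, with 930 (61.2%). Over all pairs the share at 0.3 or more was 2.02% in the inflamed and 4.31% in the dedifferentiated HEC. Pairs on different chromosomes made up 1252 of the 1519. Within 1 module of 69 genes, described under the other observations, lay 1042 of the 1519 (68.6%). The shares above therefore describe mainly that module, whose median r was 0.42 in the inflamed and 0.34 in the dedifferentiated HEC.

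The highest r of Glycam1 was with Ly6i, a glycolipid-anchored Ly6 protein (0.73), followed by Ubd (0.70), Clu (0.65), the ferritin heavy chain Fth1 (0.52), the sialoglycoprotein Cd24a (0.50) and Chst4 (0.49). In the inflamed HEC these 6 values were 0.53, 0.62, 0.58, 0.43, 0.36 and 0.45, and in the dedifferentiated HEC 0.59, 0.57, 0.45, 0.59, 0.22 and 0.52. In the 32 BEC, where Glycam1 was low, they were all between -0.08 and 0.08. Ly6i itself reached an FPKM of 1 in 69 of 79 cells and ran from 0 to 1340 FPKM with a median of 202. Clu ran from 0.66 to 44862 FPKM with a median of 7663. Clustering of all expressed genes (average linkage on 1 - r, cut at 0.6) put Glycam1, Ly6i, Ubd, Clu, Cd24a and the calcium-binding Nucb2 into 1 module, whose 15 pairs had a median r of 0.50 and none of which lay below 0.33. The same median was 0.33 among inflamed and 0.29 among dedifferentiated HEC.

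Several cell properties moved with Glycam1. The second principal component, with 2.96% of the variance, had r 0.81 with Glycam1 and 0.68 with the summed FPKM of the cell, to which Glycam1 contributes. After rescaling so that all other genes than Glycam1 and Ccl21a summed to the same total in every cell, r of Glycam1 with Ly6i was 0.74 and with Ly6c1 -0.65. The summed markers of platelets had r 0.42 with Glycam1. Of these 5 markers Pf4 alone was expressed, Ppbp, Gp1bb and Gp9 were at 0 in all cells, and the sum ran from 0 to 1572 FPKM. The summed 10 leukocyte markers ran from 0.41 to 5268 FPKM and had r 0.30 with Glycam1. Without the 8 cells that carried markers of another type, r of Glycam1 and Ly6i was 0.72.

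**Figure D3:**
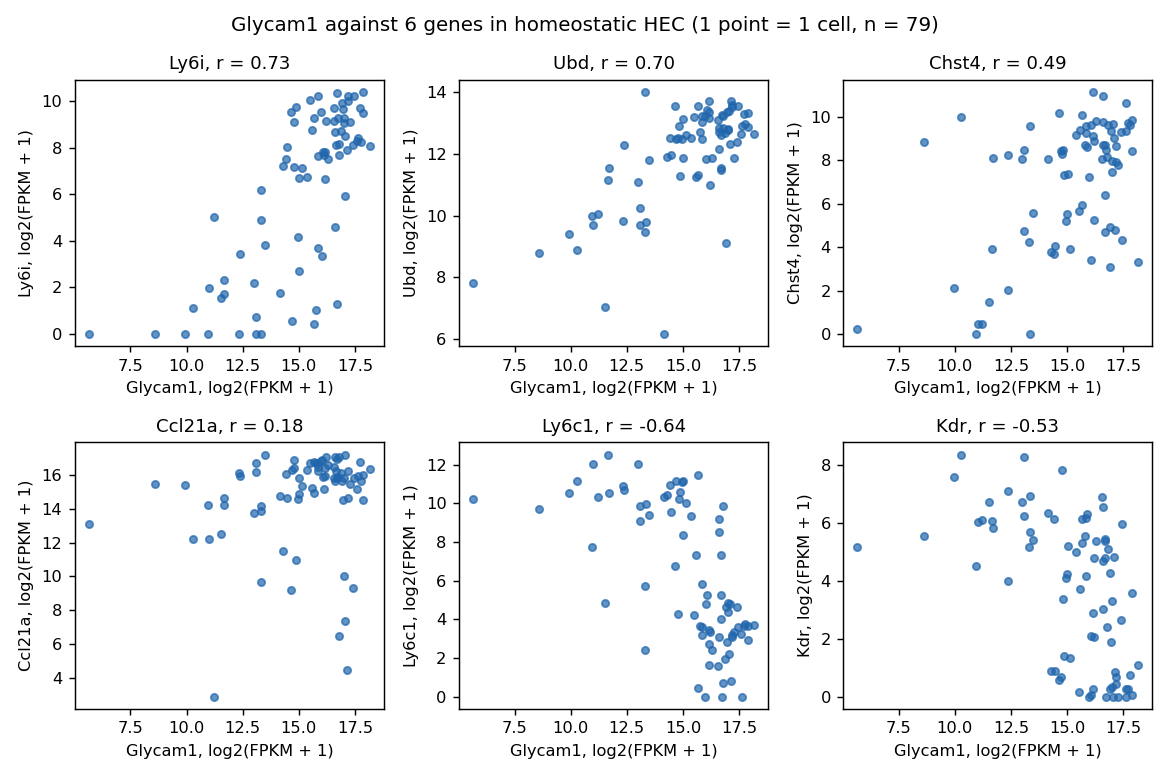
Glycam1 (x axis) against Ly6i, Ubd, Chst4, Ccl21a, Ly6c1 and Kdr (y axes), all as log2(FPKM + 1), 1 point per homeostatic HEC (n = 79). Ly6i and Ubd climb with Glycam1 (r 0.73 and 0.70), Ccl21a hardly does (0.18), and Ly6c1 and Kdr go the opposite way (-0.64 and -0.53).

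Genes of ordinary blood vessels ran against Glycam1. The lowest r of any pair of expressed genes was that of Glycam1 and Ly6c1, at -0.64, with -0.50 in the inflamed and -0.58 in the dedifferentiated HEC. Kdr, the main receptor of vascular endothelial growth factor, had -0.53 with Glycam1, Ptprb, a phosphatase of endothelial junctions, -0.50, and Bcam, a laminin receptor, -0.46. In the inflamed HEC these 3 were at -0.20, -0.35 and -0.19, and in the dedifferentiated HEC at -0.12, -0.27 and -0.17. Bcam was close to the detection limit, with an FPKM of 1 or more in 40 of 79 HEC (median 1.17) and 17 of 32 BEC (median 1.72). Of the 29 expressed genes of the pan-endothelial, capillary and arterial, and basement membrane lists, 26 had an r below 0 with Glycam1 and 11 were at -0.3 or less, against 59 of 2777 genes (2.12%) for Glycam1 over all expressed genes and 0.277% of all pairs, with a median of -0.22 against 0.00 over all expressed genes. Gcnt1 had 26 of 29 below 0 but none at -0.3, and Ubd had 24, of which 4 were at -0.3 or less, against 0.936% of all its pairs. Their medians were -0.10 and -0.11, each against 0.02 over all expressed genes. Chst4 had 21 below 0, of which 2 were at -0.3 or less, against 0.972% of all its pairs. Fut7 and Ccl21a did not run against these genes, with 14 and 12 of the 29 below 0, none at -0.3, and medians of 0.00 and 0.04. Ackr1 and Enpp2 had 9 and 4 of the 29 below 0 and medians of 0.11 and 0.12, against 0.04 and 0.07 over all expressed genes. The scatter plots of Glycam1 show these relations cell by cell.

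Cells were also divided at a Ly6c1 level of 100 FPKM, a limit chosen after the values were seen, with 35 cells between 107 and 5906 FPKM and 44 cells between 0 and 56.9. Glycam1 ranged from 49.6 to 114020 FPKM with a median of 20085 in the first set, and from 2935 to 295547 with a median of 107917 in the second. A lower Glycam1 in the first set follows from the split, since Ly6c1 had r -0.64 with Glycam1 over all cells. The sets overlap in Glycam1. Within the upper and the lower set, r of Ly6c1 itself with Glycam1 was -0.29 and -0.19, where the split narrows the range of Ly6c1. Inside the upper and the lower set, Kdr had r -0.34 and -0.52 with Glycam1, and Ptprb -0.38 and -0.06. Ly6i had 0.72 and 0.56, Ubd 0.69 and 0.49, Clu 0.46 and 0.63 and Chst4 0.50 and 0.44. Thus Ly6i and Ubd were lower than over all cells in the lower set, and Clu in the upper set. Ly6c1 has a close paralogue, Ly6c2, and how fragments were divided between such copies was not stated.

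Several vessel genes also varied with one another in the homeostatic HEC. Ly6c1 had r 0.57 with Ptprb, 0.46 with Kdr, 0.46 with Sparcl1, a matrix protein of the SPARC family, and 0.43 with the collagen Col4a1. Kdr and Ehd4, a membrane trafficking protein, had 0.53, and Ehd4 and the lipid phosphatase Ppap2b had 0.52. Ehd4 was no higher in BEC than in homeostatic HEC, with mean log2 levels of 4.88 and 4.94. Values in the other HEC groups were mixed. Ly6c1 and Sparcl1 had 0.38 and 0.48 in the inflamed and dedifferentiated cells, Ly6c1 and Ptprb 0.04 and 0.14, and Kdr and Ehd4 0.01 and -0.06. In BEC, Ly6c1 had 0.08 with Ptprb, 0.05 with Kdr, 0.02 with Sparcl1 and -0.05 with Col4a1. Kdr and Ehd4 had 0.45 in BEC, and Ehd4 and Ppap2b 0.61. Fabp4, Ly6c1 and the water channel Aqp1, the only 3 of 18 capillary and arterial genes that were expressed, had a median r of 0.39. Among 16 of 19 pan-endothelial genes 12 of 120 pairs were at 0.3 or more, led by Esam and Egfl7 (0.50), and among 10 of 15 basement membrane genes 9 of 45 were.

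Ccl21a, as abundant as Glycam1, had few partners. Glycam1 and Ccl21a had r 0.18 in the homeostatic HEC, 0.75 in the inflamed and 0.61 in the dedifferentiated HEC; the difference was not tested, since each group is 1 sample. Only 19 of 2777 other genes (0.684%) reached 0.3 with Ccl21a, against 81 (2.92%) for Glycam1, 100 (3.60%) for Chst4 and 94 (3.38%) for Ubd. Its highest r, 0.63, was with Ccl21b, a near-identical copy whose fragments cannot be told apart with certainty. Next came Ramp2, a partner of the adrenomedullin receptor, with 0.40. Ramp2 had 0.11 with Ccl21a in both other HEC groups.

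Of the 8 expressed enzymes that build L-selectin ligands, 3 had an r of 0.3 or more with Glycam1. Chst4 and Glycam1 had r 0.49, Gcnt1 and Glycam1 0.44, Fut7 and Glycam1 0.37, Fut7 and Chst4 0.38, and Chst4 and Gcnt1 0.37. The other 5 had lower values with Glycam1: 0.20 for the sulfotransferase Chst2, 0.13 for the galactosyltransferase B4galt1, 0.05 and 0.01 for the sialyltransferases St3gal6 and St3gal4, and 0.02 for B3gnt3, which extends core O-linked sugars. Over the 74 cells with both genes at an FPKM of 1 or more, Chst4 and Glycam1 had 0.29. Over all 28 pairs of the 8 markers the median r was 0.16, with 9 pairs (32.1%) at 0.3 or more, against 1.55% of all pairs. The marker pairs were a choice made for their high endothelial expression, so this share describes them only. Their median was 0.34 in the inflamed and 0.16 in the dedifferentiated HEC. The wider list of L-selectin ligand synthesis had 11 of 20 genes expressed, a median of 0.09 and 6 of 55 pairs at 0.3 or more. One of these 6, the sialomucins Cd34 and Emcn (0.52), had -0.16 and -0.14 in the inflamed and dedifferentiated HEC.

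Some leading partners of the enzymes were shared. Fut7 had r 0.51 with Dclk1, a microtubule-associated kinase, which had 0.43 with Gcnt1. Mfge8, a secreted protein that bridges phospholipids and integrins, had 0.48 with Fut7, 0.43 with Gcnt1, 0.47 with Glycam1 and 0.52 with Ubd. Gcnt1 had 0.47 with the desmosomal cadherin Dsg2 and 0.43 with Papss2, the enzyme that makes the sulfate donor. Chst4 had 0.57 with the peptidase Cpq. Fut7 and Dclk1 had 0.30 in the inflamed and 0.35 in the dedifferentiated HEC, Gcnt1 and Dsg2 0.24 and 0.47, and Chst4 and Cpq 0.14 and -0.05. Several of these depended on the measure. Spearman's rho was 0.26 for Fut7 and Dclk1 and 0.31 for Gcnt1 and Dsg2, and with both genes detected r was 0.33 for Chst4 and Cpq and 0.25 for Gcnt1 and Papss2.

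The markers Ackr1 and Enpp2 varied little with Glycam1, with r 0.11 and -0.01. Among the other genes of the Glycam1 module, the highest r of Enpp2 was 0.14, with Ubd. That of Ackr1 was 0.32, with Cd24a. Ackr1 had 0.35 with the secreted glycoprotein Lrg1 and 0.33 with Vwf, the von Willebrand factor, and these were 0.57 and 0.44 over inflamed HEC and 0.16 and 0.21 over dedifferentiated HEC. Its highest r, 0.49 with the oligosaccharyltransferase subunit Dad1, was 0.01 and -0.06 in those groups and 0.17 as Spearman's rho. Enpp2 had its highest r with Ndufa8, a subunit of respiratory complex I (0.51), which was 0.15 and -0.23 in the other HEC groups and 0.29 as rho. None of the 6 leading partners of Ackr1 or of Enpp2 reached 0.3 in either other HEC group, whereas all 6 of Glycam1 did so in the inflamed and 5 in the dedifferentiated HEC. Over all 8 markers 18 of 48 leading partners reached 0.3 in the inflamed and 13 in the dedifferentiated HEC.

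The immediate early genes, which respond within minutes to growth factors, stress or tissue handling, also varied together. Of 20 listed genes 15 were expressed, and 62 of their 105 pairs were at 0.3 or more, with a median r of 0.39. The median was 0.37 after the fit on detected genes, 0.29 in the inflamed and 0.26 in the dedifferentiated HEC. Fos, a subunit of the AP-1 transcription factor, ran from 0 to 2897 FPKM with a median of 403. Zfp36, which destabilises cytokine messenger RNA, ran from 0 to 1004 with a median of 242, and the 2 had r 0.76. Jun, the partner of Fos, ran from 0 to 931 with a median of 96.0 and had r 0.64 with Fos and 0.67 with both Zfp36 and the phosphatase gene Dusp1. Egr1 ran from 0 to 2370 with a median of 377 and had r 0.54 with Fos over all cells and 0.71 over the 69 cells with both at an FPKM of 1 or more. Each of these 4 thus spanned from nothing to high levels among cells of the same label. At an FPKM of 10 a cell carried between 1 and 14 of the 15 genes, with a median of 10.

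A module of 14 genes held this group: Jun, Zfp36, Fos, Ppp1r15a, Fosb, Ier3, Junb, Dusp1, Egr1, Gem, Ier2, Btg2, Cyr61 and Apold1, with a median r of 0.47 over 91 pairs. Over inflamed HEC the median was 0.37, and it was 0.32 over both dedifferentiated HEC and BEC. Of 12 listed heat shock genes 7 were expressed, with a median r of 0.06 and no pair of 21 at 0.3 or more. Whether tissue handling had a part in the levels of either set of genes was not tested. Glycam1 had r 0.27 with Fos.

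Promoters of the module were searched for the motifs of the factors known to drive such genes, on both strands of the 250 bases before the RefSeq start site (GRCm38.p6). Promoters were found for 10 of the 14 genes. The cAMP response element TGACGTCA, bound by CREB and ATF proteins, stood in those of Dusp1, Btg2 and Ppp1r15a, 3 of the 10, against 1.77% of 27018 genes with a promoter. The CArG box, bound by the serum response factor, stood in that of Zfp36, against 1.62% of all. An NF-kB site stood in those of Fos, Fosb and Ier3, also 3 of the 10, against 8.24% of all. The 3 promoters with the first motif are shown as those of the module that hold it, with the motif in capitals. It ends 135 bases before the start site in Dusp1, 158 in Btg2 and 4 in Ppp1r15a. A match is a description of the letters and no evidence of binding.
Dusp1, chr17:26508473-26508722, minus strand: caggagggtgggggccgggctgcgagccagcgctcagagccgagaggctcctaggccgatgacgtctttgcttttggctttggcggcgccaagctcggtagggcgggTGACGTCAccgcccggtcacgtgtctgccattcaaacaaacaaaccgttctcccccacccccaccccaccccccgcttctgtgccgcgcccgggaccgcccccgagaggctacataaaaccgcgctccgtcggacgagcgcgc
Btg2, chr1:134079156-134079405, minus strand: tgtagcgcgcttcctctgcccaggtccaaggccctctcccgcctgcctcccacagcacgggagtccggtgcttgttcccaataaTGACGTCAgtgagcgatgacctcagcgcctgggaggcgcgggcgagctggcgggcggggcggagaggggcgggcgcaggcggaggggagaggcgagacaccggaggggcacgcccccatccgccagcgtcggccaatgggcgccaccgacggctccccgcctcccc
Ppp1r15a, chr7:45526269-45526518, minus strand: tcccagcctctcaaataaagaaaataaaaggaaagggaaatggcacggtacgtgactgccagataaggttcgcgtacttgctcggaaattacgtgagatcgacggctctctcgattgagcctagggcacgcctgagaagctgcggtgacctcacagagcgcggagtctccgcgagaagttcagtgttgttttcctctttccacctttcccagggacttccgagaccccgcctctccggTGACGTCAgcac

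A smaller module joined Cxcl1 with Nfkbia, the NF-kB inhibitor that is itself an NF-kB target, the kinase Map3k8, the transcriptional repressor Hes1 and Ifrd1. Its 10 pairs had a median r of 0.47, with 0.13 in the inflamed and 0.12 in the dedifferentiated HEC. Cxcl1 reached an FPKM of 1 in 53 of 79 cells and ran from 0 to 4145 FPKM with a median of 7.51. Nfkbia was present in every cell, from 1.86 to 5544 FPKM with a median of 586. Their r was 0.56, or 0.41 over the 53 cells with both. Cxcl1 also had r 0.55 with the immediate early genes Ppp1r15a and Ier3. The wider NF-kB list, with 9 of 19 genes expressed, had a median r of only 0.10, and 2 of 36 pairs reached 0.3. Of the 5 module genes 3 have a RefSeq promoter, and among these Cxcl1 and Nfkbia hold an NF-kB site, as does Ubd among 3 promoters of the Glycam1 module. Over all genes with a promoter the share was 8.24%. With 3 promoters each, these counts describe the letters only, and a part of NF-kB in either module was not tested. The 250 bases before the start site are shown for Cxcl1 and Nfkbia, with the site in capitals. In Cxcl1 it was matched on both strands at overlapping positions.
Cxcl1, chr5:90890995-90891244, plus strand: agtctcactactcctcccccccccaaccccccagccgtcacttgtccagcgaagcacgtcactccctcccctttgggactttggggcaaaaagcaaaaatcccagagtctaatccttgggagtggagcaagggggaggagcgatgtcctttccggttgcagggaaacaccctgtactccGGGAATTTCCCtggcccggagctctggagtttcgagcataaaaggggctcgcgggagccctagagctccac
Nfkbia, chr12:55492648-55492897, minus strand: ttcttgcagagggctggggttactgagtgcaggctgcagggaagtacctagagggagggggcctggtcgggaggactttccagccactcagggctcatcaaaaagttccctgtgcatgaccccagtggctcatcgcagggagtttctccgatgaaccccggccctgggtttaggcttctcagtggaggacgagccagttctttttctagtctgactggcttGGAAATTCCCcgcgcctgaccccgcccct

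**Figure D4:**
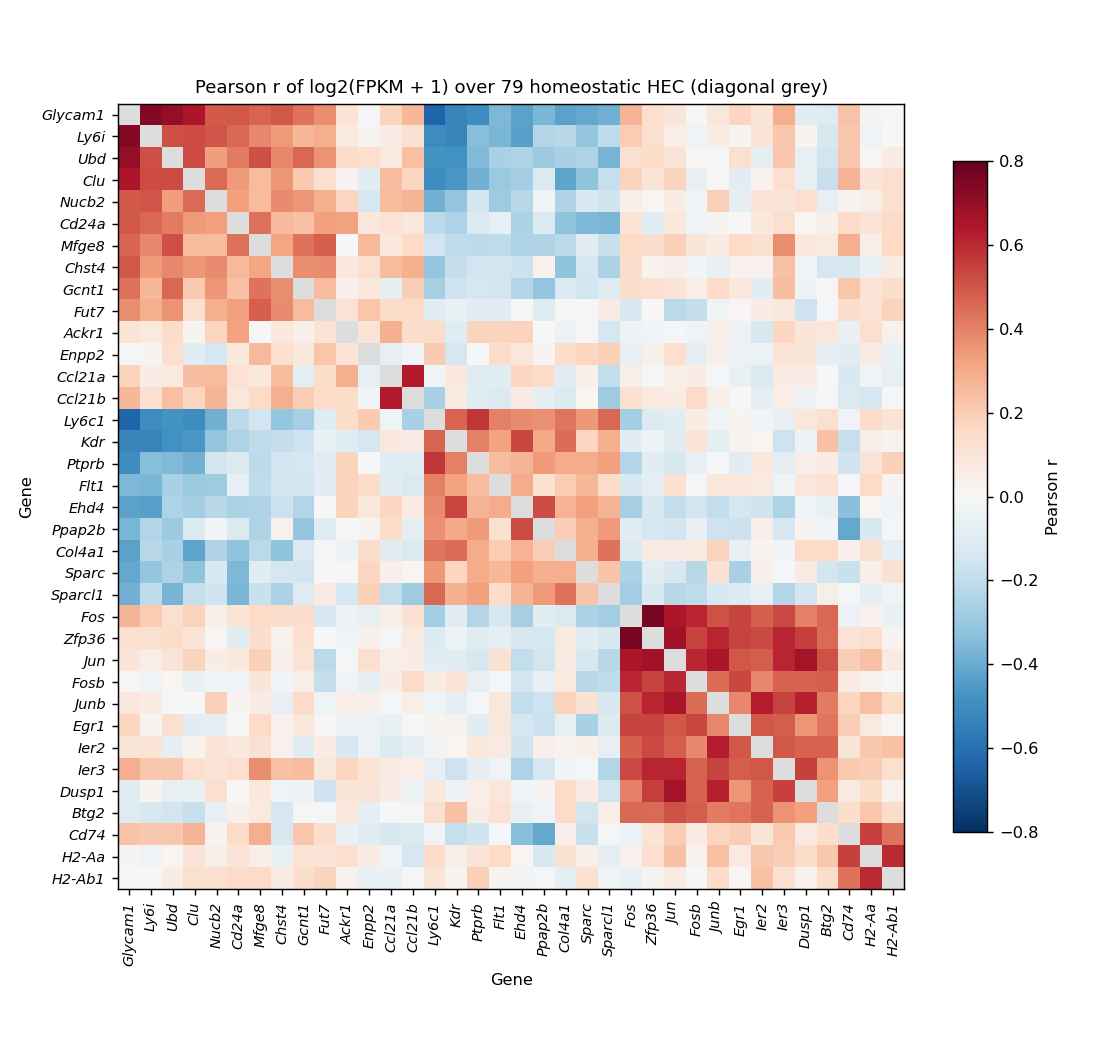
Pearson's r of log2(FPKM + 1) over 79 homeostatic HEC for 36 genes, ordered by group and chosen after the values were seen; red is positive, blue negative, and the diagonal is grey. Blocks of positive r hold the Glycam1 partners and the vessel genes from Ly6c1 to Sparcl1. Others hold the immediate early genes from Fos to Btg2 and the MHC class II genes. Between the first 10 genes and the vessel genes, 87 of the 90 pairs are below 0, some barely, such as Fut7 and Ehd4 (-0.002). Several of these genes were picked for a high or low r with Glycam1 in the same cells. The signs therefore follow in part from the choice, and the count is no test of opposition.

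The heatmap of 36 genes shows these groups side by side. In it, Glycam1 had r between -0.10 and 0.29 with the 10 immediate early genes, and Ly6c1 between -0.27 and 0.13.

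Genes of antigen presentation were described by class. Of the 7 MHC class II genes 3 were expressed: Cd74, the invariant chain, at 0 to 5639 FPKM with a median of 256, H2-Aa at 0 to 2845 with a median of 5.13, and H2-Ab1 at 0 to 2550 with a median of 1.59. H2-Aa and H2-Ab1 had r 0.60, Cd74 and H2-Aa 0.54, and Cd74 and H2-Ab1 0.44. Their median was 0.60 in the inflamed and 0.41 in the dedifferentiated HEC. At an FPKM of 10, 18 cells had all 3 and 12 had none. The summed 8 B lymphocyte markers ran from 0 to 2284 FPKM and had r 0.50 with H2-Aa and 0.33 with Cd74, and Pax5 was at 0 in all cells. Without the 8 cells with markers of another type, Cd74 and H2-Aa had 0.49. Between MHC class I and class II genes the median r was 0.08, and 4 of 39 pairs (10.3%) reached 0.3.

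MHC class I, with 13 of 15 genes expressed, had a median r of 0.13 and 5 of 78 pairs at 0.3 or more, led by the paired heavy chains H2-K1 and H2-D1 (0.57). These 2 share much of their sequence, which limits how firmly they can be told apart. Among the interferon gamma induced GTPases and chemokines 8 of 13 were expressed, with a median r of 0.28 and 11 of 28 pairs (39.3%) at 0.3 or more, and the median was 0.23 in both other HEC groups. Gbp4 and Gbp7, guanylate-binding proteins of cell-autonomous defence and a pair of the same family, had the highest r, 0.44. Of the type I interferon response genes 8 of 20 were expressed, with a median of 0.20 and 3 of 28 pairs at 0.3 or more. Protease inhibitors included Serpina1b and Serpina1e at r 0.75, which are near-identical copies, and Serpinb9 with the peptidoglycan receptor Pglyrp1 at 0.52.

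**Figure D5:**
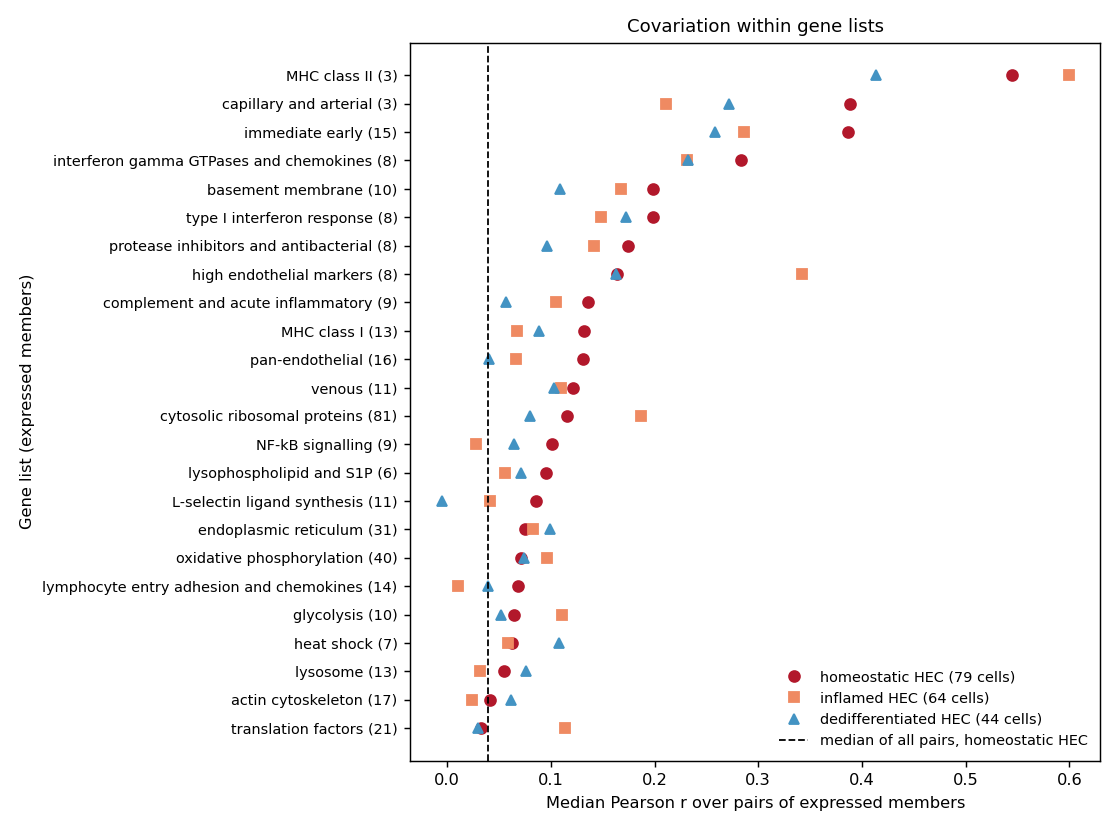
Median Pearson's r over pairs of expressed members of each gene list (number of expressed members in brackets) in 79 homeostatic, 64 inflamed and 44 dedifferentiated HEC; the dashed line is the median of all pairs in homeostatic HEC, 0.04. MHC class II, capillary and arterial, and immediate early genes lie farthest right, and translation and actin genes lie near the line.

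The plot of list medians shows that most metabolic and structural groups lay near the background. Oxidative phosphorylation had 40 of 41 genes expressed, a median r of 0.07 and 29 of 780 pairs at 0.3 or more (3.72%). Glycolysis had 10 of 14, a median of 0.06 and no pair of 45. The endoplasmic reticulum list had 31 of 34, a median of 0.07 and 14 of 465 pairs, and the actin list 17 of 18, a median of 0.04 and 4 of 136. Translation factors, all 21 expressed, had 0.03, and 13 of 15 lysosomal genes had 0.05. The 81 expressed genes of 86 for cytosolic ribosomal proteins had a median of 0.12, with 314 of 3240 pairs (9.69%) at 0.3 or more. Complement and acute inflammatory genes, with 9 of 18 expressed, had a median of 0.14 and 2 of 36 pairs. Venous genes, with 11 of 12, had 0.12 and 2 of 55 pairs, and genes of lymphocyte entry, with 14 of 21, had 0.07 and 3 of 91 pairs. Genes of lysophospholipid and sphingosine phosphate signalling, with 6 of 11, had 0.09 and 2 of 15 pairs. Only 1 of 15 cell cycle genes was expressed.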

How the data were processed

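The deposited table holds FPKM values made by the authors for 24049 gene symbols in 220 single cells. CASAVA 1.8 and RSEM 1.2.18 appear in the submitters' processing notes, as does mouse build mm10. Their roles, the annotation, cell filters and doublet handling were not stated there. RSEM divides fragments between similar genes by estimation. A model for counts was not applied to FPKM, and molecular tags were not used. Values were taken as log2(FPKM + 1) with no further scaling between cells. Groups followed the titles, checked against the labelled condition and treatment.

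Pearson's r over the 79 homeostatic HEC was computed for genes that reached an FPKM of 1 in at least 50% of them, and modules came from average linkage on 1 - r, cut at 0.6, with 5 genes or more (Python 3.11.15, numpy 2.4.6, pandas 2.3.3, scipy 1.17.1). The script for correlations and modules was tested on simulated data with planted modules. These were planted at a higher correlation than the modules reported here, among otherwise independent genes. Recovery of modules as loose as those reported was therefore not tested. Depth was approximated from the steps of low FPKM over 2655 single-transcript genes of GENCODE M21, which held 94.6% of the symbols; in 20 simulated cells it came to 0.997 to 1.00 times the depth put in. Named genes were list members, the 20 of highest mean, the 10 of largest and of smallest SD, the 6 highest and 4 lowest partners of each marker, leading pairs, and the 8 leading genes of each module, without clone names and ribosomal protein genes. Other genes are named for their pairs with these and were chosen after their values were seen. The members, the 24 gene lists and the 9 marker lists of other cells were chosen with earlier results of these data known. Alternatives were other pseudocounts, filters, Spearman's rho, rescaling, residuals on detected genes or depth, and cells left out.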

Additional observations from a re-analysis of the deposited data

How the results depend on the processing

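For 26 named pairs, 300 correlations were recomputed under settings other than the filters, which cannot move a pair. Of these, 274 moved by 0.1 or less, 26 moved further and none changed sign. Of 237 recomputed list medians, 235 moved by 0.1 or less. Many of these medians were near or below 0.1 at the main setting. For them the limit could hardly be exceeded, so the count is no measure of stability. Across settings the median ran from -0.004 to 0.07 for glycolysis, from 0.04 to 0.12 for the NF-kB list and from 0.03 to 0.08 for oxidative phosphorylation. The further moves came from few settings. Over only the cells with both genes detected, 11 of 26 pairs moved further, among them Ccl21a and Ccl21b, from 0.63 to 0.41. With Spearman's rho 6 of 26 did. With the 2 cells farthest from the median left out, 1 of 26 did (Enpp2 and Ndufa8, 0.38). Within each Ly6c1 set 4 of 7 did, where the split itself narrows the range of Ly6c1. The number of expressed genes, 2778, was 5607 at an FPKM of 1 in 25% of the cells, 1116 in 80% of the cells and 1436 at an FPKM of 10 in 50% of the cells. The 1519 pairs at r of 0.5 or more were 941 with a pseudocount of 10 and 369 with the FPKM limit of 10. With 80% of the cells required, the immediate early median was 0.53 and the interferon gamma median 0.39. The 7 modules were 12 with a pseudocount of 0.1, 4 with Spearman's rho, 13 without the 10 cells with fewest genes, 3 at a tree cut of 0.5 and 57 at 0.7. Leaving out the 5 cells with Glycam1 or Ccl21a in the BEC range, and splitting cells by Ly6c1 at an FPKM of 100, were chosen after seeing the data; the first moved none of the 26 pairs by more than 0.1. The cause of these shifts was not tested beyond the fewer or more genes and cells each setting holds. No paired analysis was possible because no comparison between groups was tested and a cell's number pairs it with nothing. Depth limits genes of low level, which are often at 0.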

Other observations

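The largest module of covarying genes held none of the gene groups described above. It joined 69 genes, 16 of them with predicted or clone names, and contained 1042 of the 1519 pairs at r of 0.5 or more (68.6%). Its leading named genes were Cybrd1, a duodenal-type cytochrome reductase, Spc24, a kinetochore subunit, Ctcfl, a germ cell paralogue of CTCF, Trim36, Lrrn4cl, Casc4 and Zfp459. Their levels were low: Cybrd1 ran from 0 to 13.8 FPKM with a median of 4.22, Trim36 from 0 to 7.17 with a median of 2.13, and Ctcfl from 0.30 to 21.02 with a median of 5.22. Cybrd1 and Trim36 had r 0.79, and 0.68 over the 65 cells with both at an FPKM of 1 or more. The module's median r was 0.48 here, 0.42 over inflamed HEC, 0.34 over dedifferentiated HEC and 0.25 over BEC, and its mean level had r -0.41 with summed FPKM, -0.13 with approximated depth and 0.13 with detected genes. Tyr, the melanocyte enzyme tyrosinase, belonged to the module. It was present in every homeostatic HEC, from 1.88 to 83.6 FPKM with a median of 19.5. Tyr also reached an FPKM of 1 in every BEC, inflamed HEC and dedifferentiated HEC, with medians of 27.26, 20.2 and 8.8. Median levels of Cybrd1, Trim36, Spc24 and Ctcfl were likewise higher in BEC than in homeostatic HEC. Detection of these genes was therefore not particular to homeostatic HEC. Olfactory and vomeronasal receptor genes or pseudogenes, picked here by name, were also members: Olfr613, Olfr856-ps1, Vmn1r58 and Vmn2r-ps129.

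The remaining modules were small. Malat1 and Kcnq1ot1, both nuclear RNAs, grouped with the fucosyltransferase Fut8 and 2 clone names at a median r of 0.60, with 0.45 in the inflamed and 0.38 in the dedifferentiated HEC. Cbx3, Lrrc8a, Atp5l, Canx and Anxa5 had a median of 0.56, with 0.10 and 0.26. Ubb, Sept2, Calm2, 2 ribosomal protein genes and Gm1821 had 0.45, with 0.14 and 0.16, and ubiquitin genes share sequence. Plp2 and Prickle3, which overlap in the annotation, had r 0.78, and reads of overlapping genes may be shared.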
